A study of Homo sapiens with 9 samples.

Results

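The 3 control samples of SKNO-1 cells, labelled EV with the numbers 1, 13 and 25, were taken from a set of 9 RNA samples and described on their own, with no comparison between treatments. SKNO-1 is an established human acute myeloid leukaemia cell line, and its label names the AML-ETO fusion, which joins RUNX1 to RUNX1T1. The other 6 samples carried an shRNA against ASXL2 and served here only for an alternative choice of transcript. EV is not spelled out in the labels, while the study speaks of a control shRNA for its SKNO-1 RNA-seq, and what the cells carried is not settled here. It gives each arm of that experiment as a biological triplicate. SKNO-1 was cultured with GM-CSF. The RNA-seq methods give poly(A)-selected, unstranded libraries, in a passage written for sorted mouse cells, and the extraction text of these samples likewise describes sorted bone marrow fractions. The samples were treated as SKNO-1 because both their source and their cell line fields name it. Counts were given per RefSeq transcript for 25680 gene symbols, and of several transcripts of a symbol only the most counted was kept.

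Acute myeloid leukaemia with this fusion is a disease of myeloid precursors that are blocked before they mature. RUNX1 is a DNA-binding factor needed for blood formation, and RUNX1T1 (ETO) recruits corepressors to its targets when both are joined. Granulocyte precursors fill their azurophil granules with myeloperoxidase and serine proteases early. Genes of the later granules, such as lactoferrin and the neutrophil collagenase, are switched on afterwards.

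Totals with 1 transcript per symbol were 35406241, 29197732 and 29706006 counts in samples 1, 13 and 25. Levels were expressed as CPM, in which the counts of each sample are scaled to a common total, after TMM scaling, whose factors lay between 0.994 and 1.01. At this depth 3 counts, used here as the floor, corresponded to 0.0840 to 0.103 CPM. These floors cover counting error only. The 3 samples were close to each other, and samples 1 and 25 were the pair furthest apart. Over the 9479 symbols with a mean of at least 10 CPM, Pearson's r of log2 CPM across genes was 0.986 for samples 1 and 13, 0.974 for 1 and 25 and 0.987 for 13 and 25. Genes are not independent replicates, so these coefficients are descriptions.

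In 2 stretches of the genome most genes had almost no counts, among them genes that every cell uses. The larger stretch was the HLA interval of chromosome 6 (GRCh37, 28471073 to 33425321), from GPX6 to ZBTB9. Of its 166 protein-coding genes 91 had no count in any sample, and 21 (12.7%) reached a mean of 1 CPM. In the 5 Mb on either side, histone genes left out, 71 of 110 protein-coding genes (64.5%) reached it. The 2 shares were not filtered alike. The histone genes left out of the flanks were mostly under 1 CPM, while the interval kept 12 olfactory receptor genes, all without a count. Before the interval ZSCAN12 stood at 29.7 ± 3.44 CPM (mean ± SD, n = 3 here and below). ZSCAN23, which lies between it and the interval, had only 2.27 CPM, so the edge on this side was not sharp. At the far side the level went from 0.599 CPM for ZBTB9 to 31.5 ± 4.51 CPM for BAK1. Within the interval TUBB, a main beta-tubulin gene, had 16, 15 and 6 counts. TUBA1B, its alpha-tubulin partner on chromosome 12, had 61429, 59200 and 62815. RPS18, an essential ribosomal protein gene, had a mean of 0.0828 CPM.

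**Figure D1:**
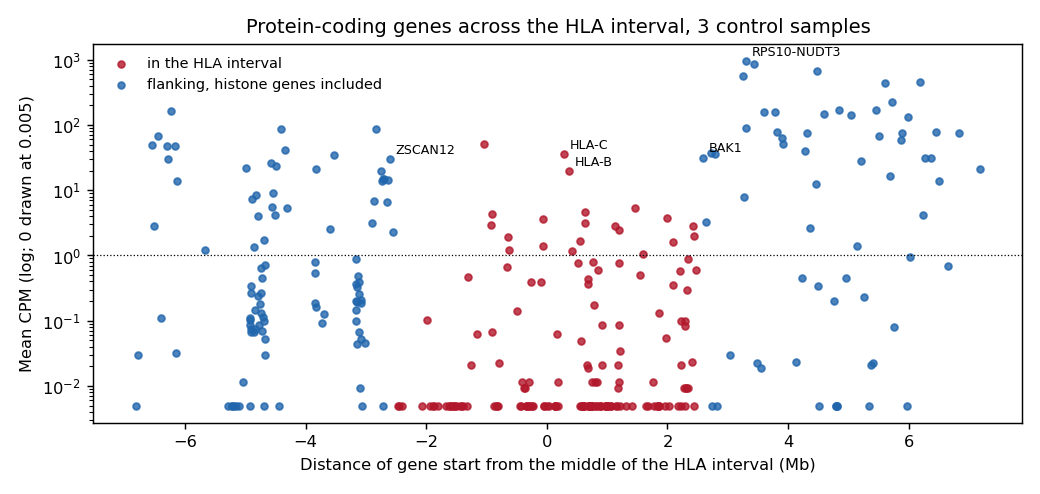
Mean CPM (log scale) of each protein-coding gene against the distance of its start from the middle of the HLA interval of chromosome 6, in Mb. Each point is a gene, averaged over the 3 control samples, and genes with no count are drawn at 0.005 CPM. Red points inside the interval lie mostly at the bottom, and 91 of the 166 genes there are at the line for no count.

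The other stretch was pseudoautosomal region 1, the tip shared by the sex chromosomes. Its 16 protein-coding genes run from PLCXD1 to XG. None of them reached 1 CPM and 11 had no count at all. The next 10 Mb of the X chromosome were also mostly empty, with 8 of 30 protein-coding genes (26.7%) at a mean of 1 CPM and 17 without a count. SLC25A6, an adenine nucleotide carrier of mitochondria, had 0, 1 and 0 counts, while its relative SLC25A5 elsewhere on the X chromosome stood at 498 ± 48.2 CPM. Near-identical copies stood out in another way, and SMN1 and SMN2 had the same 359, 325 and 337 counts. How reads that match several places were counted is not given in the sources used here, and its part in these values was not tested. A value near 0 in the 2 stretches was therefore not read as silence. The genes touched include CSF2RA, IL3RA, CD99 and the HLA genes. Both stretches were picked after their values were seen. The rest of the genome was not searched for such stretches, so a 0 outside these may carry the same limit.

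About 1 symbol in 2 was in use in these cells. At or above 1 CPM in every sample were 12316 of 25680 symbols (48.0%), and among protein-coding symbols 11201 of 19043 (58.8%). No count in any sample was found for 7017 symbols (27.3%), of which 3855 were protein-coding. Between these lay 6005 symbols with some counts and a mean under 1 CPM, and together they held 0.116% of all counts. Noncoding symbols were emptier than coding ones. No count was seen for 48.0% of 3393 long noncoding RNA symbols and for 61.0% of 1614 microRNA symbols, against 20.2% of the protein-coding symbols.

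**Figure D2:**
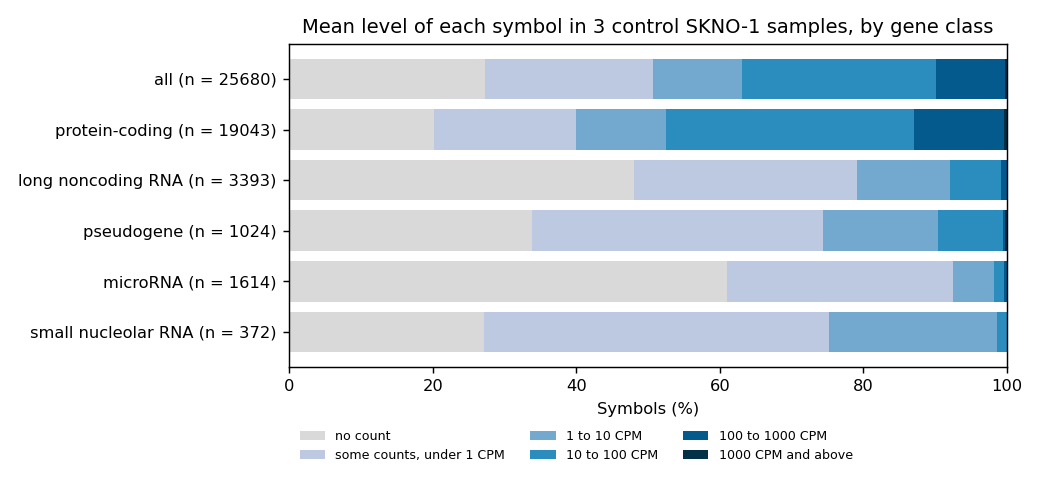
Share of symbols (%) in 6 classes of mean CPM over the 3 control samples, for all 25680 symbols and for 5 gene classes. The pale grey segment, symbols with no count, spans 20.2% of the protein-coding bar and 61.0% of the microRNA bar.

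Counts were spread over many genes. Only 82 symbols had a mean of 1000 CPM or more, and they held 15.2% of the counts. The 2436 symbols between 100 and 1000 CPM held 54.5%, and 1071 symbols were needed to reach 50% of the total. The 10 most abundant symbols took 4.06 ± 0.317% of the counts.

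MPO, the gene of the azurophil granule enzyme myeloperoxidase (NM_000250, chromosome 17, 56347216 to 56358296, minus strand, GRCh37), gave more counts than any other symbol. Its level was 9482, 8371 and 7267 CPM in samples 1, 13 and 25. This was 0.838 ± 0.117% of all counts, and every sample held it as its most abundant symbol. The next was EEF1A1, which carries aminoacyl-tRNA to the ribosome, with 7109, 6485 and 5169 CPM. ACTB, cytoplasmic beta-actin, was highest in sample 25, where MPO was lowest, with 4198, 4895 and 5565 CPM. GAPDH, a glycolytic enzyme, had 4739, 4215 and 4086 CPM. MPO had 1.92 ± 0.124 times the counts of GAPDH. Per kilobase of transcript it had 0.762 ± 0.0493 times the level of GAPDH. This scale allows for length when genes are set against each other. The length was a median over the gene's transcripts, not that of the counted one, so such comparisons are approximate.

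The rest of the 20 symbols with most counts were chaperones, glycolytic and cytoskeletal genes and the translation machinery. The cytosolic chaperones were HSPA8 (2892 ± 635 CPM), HSP90AB1 (2413 ± 321 CPM) and HSP90AA1 (2383 ± 819 CPM), and CALR, a chaperone of the endoplasmic reticulum, stood at 2851 ± 228 CPM. HSP90AA1 was uneven, with 1880.3 and 1941 CPM in samples 1 and 13 and 3328 in sample 25. ENO1, the glycolytic enolase, had 2798 ± 341 CPM and ACTG1, gamma-actin, 2616 ± 193 CPM. TPT1, a growth-related tubulin-binding protein, had 2341 ± 362 CPM, and PABPC1, which coats poly(A) tails, had 2222 ± 330.1 CPM. The other 7 were the ribosomal protein genes RPS6, RPL4, RPL3, RPL8, RPL13A, RPLP0 and RPS3, between 2312 and 2819 CPM. RNA45S5, the ribosomal RNA precursor, was at rank 9 with 3059, 3507 and 1583 CPM. It has no poly(A) tail, and it took 0.309%, 0.350% and 0.157% of the counts.

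Scaled to transcript length, the order was led by short ribosomal protein genes. RPS12 stood at 4263 ± 398 CPM per kilobase, and RPLP1 at 3882 ± 429. GAPDH, EEF1A1, ACTB, MPO and TPT1 were the only 5 symbols among the highest 20 on this scale that were not ribosomal protein genes or a copy of one. The ribosomal protein genes among the 20 included RPL37, RPS24, RPS3, RPS6, RPS19, RPL8, RPS25, RPL7A, RPLP0 and RPL30. MPO was at rank 10 with 2604 ± 344 CPM per kilobase. RPL13AP5, also among these 20, is a processed copy of RPL13A. It had 91.3%, 91.9% and 92.9% of the counts of RPL13A in samples 1, 13 and 25, so its level is uncertain. Without length scaling 9 of these 20 symbols stayed among the highest 20. With the length of a single canonical transcript per gene 14 of them did.

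The ribosomal protein genes as a family made up 8.27 ± 1.01% of all counts. Of 84 protein-coding members 81 were at or above 1 CPM in every sample, with a median of 852 CPM. The 3 exceptions were RPS18 in the HLA interval and the tissue-restricted relatives RPL3L and RPL10L, with 0.0187 CPM each. Their share was 9.18%, 8.44% and 7.18% in samples 1, 13 and 25. Translation factors were as widely expressed, with 59 of 62 at or above 1 CPM in every sample. Besides EEF1A1, the highest were EEF1G (2139.8 ± 359 CPM), EEF2 (2076 ± 375 CPM) and EIF4G1 (1168 ± 168 CPM).

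The upstream sequence of a gene is shown here for a few genes that mark the ends of the range, from the RefSeq promoter table of GRCh38.p14. Each line gives the 100 bases before the annotated start, 5′ to 3′ on the strand of the gene, with CG dinucleotides in capitals. The abundant genes are RPS12 (chr6:132814469-132814568, plus strand) and TFRC (chr3:196082091-196082190, minus). KIT (chr4:54657857-54657956, plus) stands for the progenitor genes and CEBPE (chr14:23119256-23119355, minus) for those of granulocyte precursors. The genes at or near 0 are CD34 (chr1:207911126-207911225, minus), HOXA9 (chr7:27165538-27165637, minus) and MEIS1 (chr2:66435025-66435124, plus).
RPS12: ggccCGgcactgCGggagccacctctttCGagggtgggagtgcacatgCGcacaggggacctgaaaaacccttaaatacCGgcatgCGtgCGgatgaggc
TFRC: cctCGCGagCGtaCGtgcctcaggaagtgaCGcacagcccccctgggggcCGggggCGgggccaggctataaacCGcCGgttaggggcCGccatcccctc
KIT: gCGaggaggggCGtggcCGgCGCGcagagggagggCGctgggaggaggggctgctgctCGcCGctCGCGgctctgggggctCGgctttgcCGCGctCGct
CEBPE: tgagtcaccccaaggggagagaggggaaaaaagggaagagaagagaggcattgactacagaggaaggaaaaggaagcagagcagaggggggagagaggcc
CD34: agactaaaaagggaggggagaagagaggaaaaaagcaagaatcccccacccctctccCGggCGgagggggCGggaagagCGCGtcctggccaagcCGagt
HOXA9: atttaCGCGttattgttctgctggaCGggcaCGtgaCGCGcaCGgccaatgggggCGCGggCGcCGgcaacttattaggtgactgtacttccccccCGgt
MEIS1: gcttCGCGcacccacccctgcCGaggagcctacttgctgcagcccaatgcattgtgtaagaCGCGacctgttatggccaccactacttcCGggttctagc

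CG dinucleotides are usual in promoters of widely used genes. The windows printed hold 7 for RPS12, 10 for TFRC, 14 for KIT, 6 for CD34, 12 for HOXA9 and 6 for MEIS1, and CEBPE has none. CEBPE was expressed at 68.6 CPM and HOXA9 had no count, so in these examples the number of CG did not order the genes by level. Over 11185 protein-coding symbols with a single start in the table, out of 18959, the classes did differ. The median number of CG was 2 for symbols with no count, 5 for those with some counts under 1 CPM, 9 between 1 and 10 CPM, and 11 from 10 to 1000 CPM. No CG at all was found in 23.9% of the windows of symbols without a count and in 1.26% of those between 10 and 100 CPM. The letters TATAAA, searched on both strands, stood in 6.34% of all windows, in 15.8% for symbols with no count, in 1.71% between 10 and 100 CPM and in 19.6% of the 46 windows from 1000 CPM. TFRC holds them. CCGGAA, searched in the same way and holding a CG itself, stood in 13.4% of all windows, in 3.32% for symbols with no count and in 21.4% between 10 and 100 CPM. It holds the GGAA core known from ETS factors, the family of SPI1 and FLI1, and MEIS1, without a count, has a match. A match of letters is a description, not a bound site.

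Cell type markers set out which lineage programme the cells carried. The 11 blood lineage lists hold 143 different symbols, of which 54 were at or above 1 CPM in every sample and 35 had no count. Lists were chosen with earlier results of these data known, so their counts are descriptions. In bulk RNA a few cells with much of a transcript and many cells with little of it cannot be told apart. The list of granulocyte precursor genes stood highest, with a summed level of 4128 ± 296 CPM per kilobase, ahead of the stem and progenitor list with 712 ± 33.6. It held this place in each sample set with a sample left out. Most of its sum was MPO, with 2604 ± 344 CPM per kilobase. The mature neutrophil list, in contrast, summed to 2.85 ± 0.607 CPM per kilobase.

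**Figure D3:**
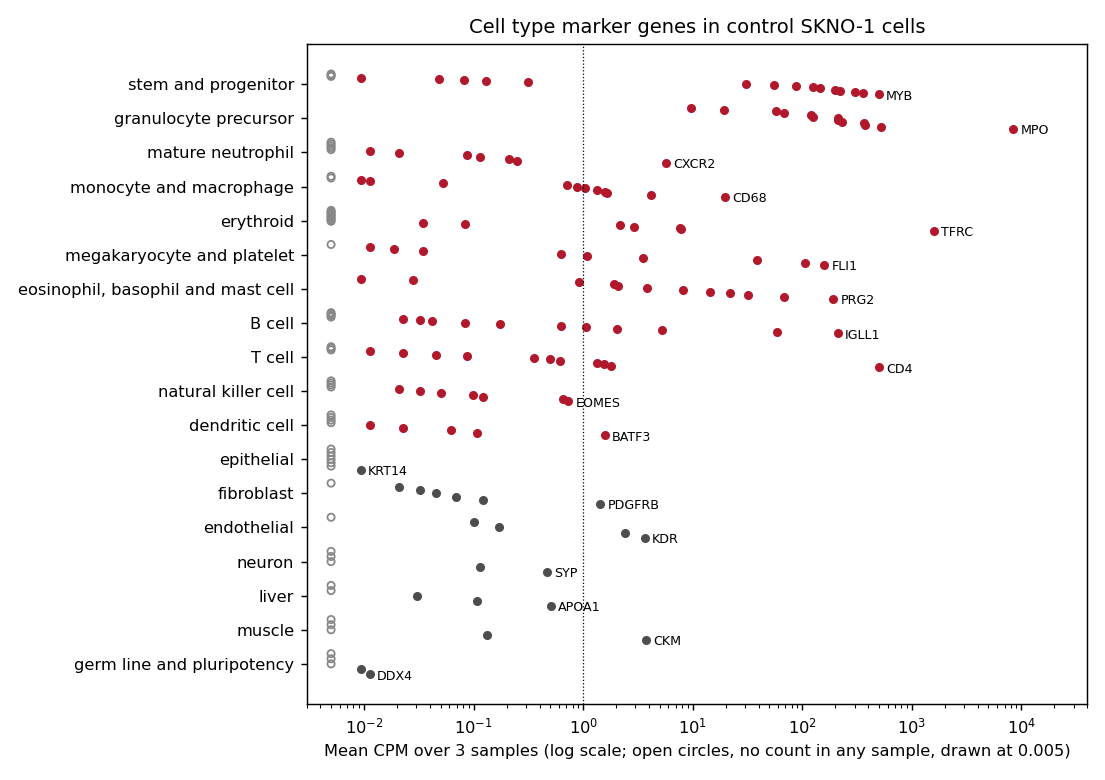
Mean CPM (log scale) over the 3 control samples for each marker gene, in rows by cell type. Filled points are genes with counts (red, blood lineages; grey, other tissues), open circles are genes with no count in any sample, drawn at 0.005 CPM, and the dotted line marks 1 CPM. All 13 granulocyte precursor genes lie right of the line, while the mature neutrophil genes lie left of it except CXCR2 at 5.65 CPM.

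All 13 granulocyte precursor genes were at or above 1 CPM in every sample, and 12 had a mean of at least 10 CPM. Behind MPO came SERPINB1, an inhibitor of granule proteases, with 611, 523 and 443 CPM. GFI1, a repressor that directs progenitors to the neutrophil line, had 389.7, 335 and 397 CPM. SPI1 (PU.1), the main myeloid transcription factor, was among the most even genes with 211, 215 and 212 CPM. CSF3R, the receptor of G-CSF, had 287, 221 and 176 CPM. CEBPE, which drives the later granulocytic stages, stood at 68.6 ± 2.41 CPM and CEBPA, the factor at the entry to the lineage, at 19.2 ± 1.34 CPM.

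Of the granule proteases, ELANE (neutrophil elastase) had 306, 341 and 458 CPM, and sample 25, the lowest for MPO, was the highest. AZU1, PRTN3 and ELANE lie next to each other on chromosome 19 (825097 to 856247, plus strand, GRCh37), followed by CFD, complement factor D. AZU1 (azurocidin) stood at 121 ± 15.0 CPM, PRTN3 (proteinase 3) at 126 ± 18.8 CPM and CFD, looked at after its neighbours were seen, at 71.0 ± 12.6 CPM. The 4 neighbours were thus all in use. CTSG (cathepsin G), another protease of these granules, was lower with 9.57 ± 0.899 CPM. SRGN, the proteoglycan that packs granule content, had 213 ± 17.3 CPM and LYZ, lysozyme, 57.0 ± 4.83 CPM.

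Genes of mature neutrophils were at or near the floor. LTF (lactoferrin), MMP8 (neutrophil collagenase), CEACAM8, CD177 and FCGR3B had no count in any sample. CAMP had 0, 0 and 1 counts, LCN2 1, 0 and 1, and S100A9, an abundant cytosolic protein of neutrophils and monocytes, 2, 1 and 5. The exception was CXCR2, a chemokine receptor, with 6.27, 5.80 and 4.88 CPM. FCGR3B has the near-identical neighbour FCGR3A, which was also without a count.

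Monocyte genes were low as well. Of 13 genes 4 were at or above 1 CPM in every sample, and CD68, a lysosomal protein, was the only gene above 10 CPM with 19.7 ± 1.98. FCGR1A, a high-affinity antibody receptor, stood at 4.16 ± 0.585 CPM. CD14, the co-receptor for lipopolysaccharide, had 2, 2 and 1 counts. IRF8, needed for monocyte and dendritic cell fate, and FCN1 had none. The dendritic cell list had no gene at or above 1 CPM in every sample, and BATF3 was its highest with 0.560, 1.37 and 2.78 CPM. IL3RA belongs to that list and lies in pseudoautosomal region 1, so its 0 is not informative.

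The stem and progenitor list was split. MYB, a factor of proliferating progenitors, had 548, 434 and 509.5 CPM. KIT, the receptor of stem cell factor (chromosome 4, 55523434 to 55606949, GRCh37), had 426, 378 and 279 CPM. RUNX1 had 314, 301 and 302 CPM. Of the factors that form complexes in stem cells, LYL1 stood at 222 ± 15.9 CPM, GATA2 at 199 ± 6.65, LMO2 at 146 ± 13.0, ERG at 87.8 ± 18.9 and TAL1 at 54.8 ± 5.60. HHEX had 125 ± 14.7 CPM, and the receptor FLT3 was the lowest of the expressed members with 30.8 ± 7.86 CPM. Thus 10 of 18 genes had a mean of at least 10 CPM and the other 8 were under 1 CPM.

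CD34, the surface marker by which progenitors are sorted, belonged to the second set. It had 3, 2 and 7 counts in samples 1, 13 and 25, or 0.0840, 0.0686 and 0.237 CPM. Its 2 transcripts held the same counts. MEIS1, the HOX cofactor, MECOM (EVI1) and PROM1 (CD133) had no count. THY1 had 1, 0 and 0 counts, SPINK2 4, 0 and 1, and HLF 8, 13 and 8. The progenitor genes in use were therefore mostly nuclear factors and the receptors KIT and FLT3, while the classical sorting markers CD34, PROM1 and THY1 were at or near the floor.

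Erythroid and megakaryocyte genes were present only in part. TFRC, the transferrin receptor, reached 1574, 1564 and 1603 CPM and was steady across samples, but it serves iron uptake in all dividing cells. Of the others, EPOR, the erythropoietin receptor, stood at 7.88 ± 1.27 CPM, KLF1 at 7.63 ± 1.59 CPM and GATA1 at 2.91 ± 0.214 CPM. No count was found for 9 of the 16 genes, among them the globin genes HBB, HBD, HBA1, HBA2, HBG1 and HBG2, the globin chaperone AHSP and GYPB. The pairs HBA1 and HBA2, and HBG1 and HBG2, are near-identical copies. Among megakaryocyte genes FLI1, an ETS factor, had 194, 145 and 136 CPM, ITGA2B (CD41) 109, 109.7 and 99.6 CPM, and NFE2 52.2, 32.4 and 32.1 CPM. Platelet granule genes were not in use at this depth: PF4 had no count and PPBP 0, 2 and 1.

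Eosinophil and mast cell genes were more widely present than those of mature neutrophils. Their list summed to 237 ± 15.5 CPM per kilobase, against 4128 ± 296 for the granulocyte precursor list. Of 12 genes 9 were at or above 1 CPM in every sample and none lacked counts altogether. PRG2, the major basic protein of eosinophil granules, had 159, 205 and 208 CPM. IL5RA, the interleukin-5 receptor, had 87.3, 54.4 and 63.0 CPM. CPA3, a mast cell carboxypeptidase, stood at 32.1 ± 4.95 CPM, EPX, eosinophil peroxidase, at 21.8 ± 3.01 CPM and CLC, the Charcot-Leyden crystal protein, at 14.3 ± 4.13 CPM. The tryptase genes TPSB2 (8.10 ± 0.585 CPM) and TPSAB1 (2.07 ± 0.220 CPM) are close copies of each other. CCR3, the eotaxin receptor of mature eosinophils, had 1, 0 and 0 counts.

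Lymphoid lists rested on a few genes each. In the B cell list, IGLL1, part of the surrogate light chain, had 227, 250.5 and 153 CPM, and CD79B, a chain of the B cell receptor, 58.7 ± 3.39 CPM. PAX5, the B cell identity factor that leukaemias with this fusion often express, stood at 5.20 ± 0.878 CPM, and CD79A at 2.05 ± 0.284 CPM. EBF1, MS4A1 (CD20), VPREB1 and POU2AF1 had no count. In the T cell list CD4 made up nearly all of the sum, and CD3D, CD3E and CD3G had no count. No gene of the natural killer list reached 1 CPM in every sample. Its highest was EOMES with 0.728 ± 0.133 CPM, and NCAM1 (CD56) had 1, 0 and 1 counts.

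Markers of other tissues were used as a check on the source. Of 39 such genes 19 had no count and none had a mean of 10 CPM. Those at or above 1 CPM in every sample were KDR (3.63 ± 1.02 CPM) and PECAM1 (2.41 ± 0.871 CPM), which are read as endothelial but also occur in blood cells, and CKM (3.78 ± 0.266 CPM), the muscle creatine kinase. EPCAM, CDH1, KRT8, KRT18, KRT19, COL1A2, the liver genes APOB and TTR, and the pluripotency factors POU5F1 and SOX2 had no count. POU5F1 lies in the HLA interval, so its 0 carries no weight.

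The partners of the fusion were both expressed. RUNX1T1, which is little used in normal blood cells, had 133, 139.6 and 119 CPM. Its counts were 0.428 ± 0.0348 times those of RUNX1. Per kilobase its level was 0.977 ± 0.0794 times that of RUNX1, so the ratio depends on the lengths used. These were medians over each gene's transcripts, not the lengths of the counted ones. The counts do not separate reads of the fusion from reads of the unfused genes. The 3 transcripts of RUNX1 differed: NM_001001890 had 11213, 8770 and 8904 counts, NM_001754 8839, 6633 and 6432, and NM_001122607, a short form that ends early, 4629, 3960 and 4311. The 15 transcripts of RUNX1T1 had almost the same counts as each other, with 4767, 4066 and 3508 in the lowest. These rows share exons, so a read can stand in several of them.

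Other members of the core-binding factor group were in use. CBFB, the partner of all RUNX proteins, stood at 147 ± 20.7 CPM, RUNX3 at 133 ± 9.96 and RUNX2 at 72.9 ± 12.4 CPM. The ETO relatives CBFA2T2 and CBFA2T3 had 34.3 ± 1.54 and 25.2 ± 8.12 CPM. POU4F1, a neural factor known from leukaemias with this fusion, had 3.58, 3.33 and 3.73 CPM. Of the chromatin regulators of the ASXL family, ASXL1 had 159.6, 151 and 144 CPM and ASXL2, the gene targeted in the other samples, 69.1, 68.5 and 75.9 CPM. ASXL3 had no count.

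Surface protein genes described what the cells could show to antibodies and ligands, with the limit that RNA does not give protein. Of 114 such genes, 78 were at or above 1 CPM in every sample, 29 had a mean of at least 100 CPM and 7 had no count. Of all 19043 protein-coding symbols, 11201 (58.8%) were at or above 1 CPM in every sample. Per kilobase the highest was B2M, the light chain of HLA class I, with 1334 ± 169, followed by BSG (basigin) with 342 ± 24.2, TFRC with 322 ± 4.13 and CD74, the invariant chain of HLA class II, with 320.3 ± 105. The last 3 differed by less than the SD of CD74.

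**Figure D4:**
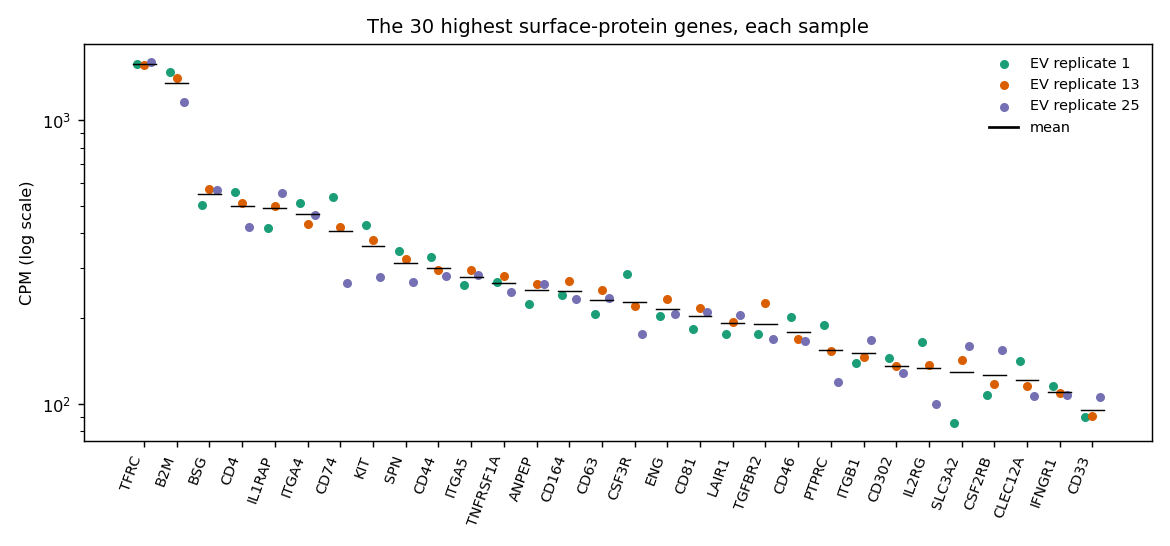
CPM (log scale) of the 30 surface protein genes with the highest means, with a point for each of the 3 control samples and a bar for the mean. TFRC is the highest with 1579.9 CPM, and CD74 and SLC3A2 show wider gaps between samples than TFRC or IFNGR1.

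CD4, the co-receptor of helper T cells that also occurs on myeloid blasts, gave the most counts of all symbols named by a CD number (NM_000616, chromosome 12, 6896024 to 6929965, plus strand, GRCh37). Its level was 557, 511 and 421 CPM. The next were CD74 (535, 418 and 267 CPM), CD44, a hyaluronan receptor (329, 296 and 282 CPM), and CD164, a sialomucin (242, 271 and 234 CPM). CD63, CD81, CD320, CD46, CD96 and CD24 followed, from 232 down to 141 CPM. CD24 was uneven with 102, 115 and 206 CPM. Of 90 symbols of this kind 47 (52.2%) were at or above 1 CPM in every sample and 11 (12.2%) had no count. The shares over all protein-coding symbols were 58.8% and 20.2%.

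Of the 22 cytokine and growth factor receptors 17 were at or above 1 CPM in every sample. IL1RAP, the shared chain of the interleukin-1 receptors, had 416, 499 and 552 CPM, and TNFRSF1A, the main receptor of tumour necrosis factor, 269.7, 283 and 248 CPM. CSF2RB, the shared signalling chain of the receptors for GM-CSF, interleukin-3 and interleukin-5, had 107, 117 and 155 CPM. CSF2RA, the specific chain for GM-CSF, the cytokine in the culture medium, had no count in its 10 transcripts, and neither had IL3RA. Both lie in pseudoautosomal region 1, where no gene had counts to speak of, so the counts do not show whether the chains were expressed. IL2RG, the shared chain of the interleukin-2 family, had 165, 137 and 99.9 CPM and IL2RA (CD25) 60.3, 39.2 and 45.8 CPM, while the partner IL2RB had 3, 5 and 0 counts. CSF1R, the macrophage receptor, was low with 1.64 ± 0.474 CPM and IL7R was under 1 CPM.

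Myeloid antigens used in diagnosis were mostly present. ANPEP (CD13), an aminopeptidase, had 225, 264 and 264 CPM, and CD33, a sialic acid-binding receptor, 89.8, 90.3 and 106 CPM. LAIR1, an inhibitory collagen receptor, stood at 192 ± 15.1 CPM, CLEC12A at 121 ± 18.3 and CD38, an NAD-consuming enzyme, at 76.9 ± 3.08 CPM. In contrast the integrins ITGAM (CD11b) and ITGAX (CD11c) were at 1.57 ± 0.232 and 2.14 ± 0.703 CPM, and CD36 had 6, 1 and 1 counts. CD300A, an inhibitory receptor, was the least even with 5.91 CPM in sample 1 against 0.412 and 0.136 in samples 13 and 25. Of the 10 lymphoid antigens that blasts can carry, CD4 and CD7 alone reached 1 CPM in every sample, and CD7 had 2.46, 1.82 and 1.05 CPM. MME (CD10), CD3E and MS4A1 had no count, and CD2 had 0, 0 and 1.

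Adhesion genes showed a matching set of integrin chains. ITGA4 had 509, 431 and 465 CPM, ITGA5 262, 295 and 283 CPM, and their partner ITGB1 139, 147 and 168 CPM. The leukocyte beta chain ITGB2 was lower with 38.4, 26.4 and 17.4 CPM, and its partner ITGAL (CD11a) was at 0.732 ± 0.126 CPM. CXCR4, which holds progenitors in the marrow, had 33.6, 23.8 and 16.8 CPM. Pan-leukocyte genes were in use: SPN (CD43) had 345, 325 and 269 CPM, PTPRC (CD45) 190.1, 154 and 119 CPM, and CD47, the signal that restrains phagocytes, 73.8, 76.7 and 72.8 CPM. In the list of pan-leukocyte and tetraspanin genes 21 of 24 genes were at or above 10 CPM, and CD48, CD9 and CD99 were not. CD99 lies in pseudoautosomal region 1.

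Antigen presentation genes have to be read with the HLA interval in mind. B2M and CD74, which lie elsewhere, had 1350.2 ± 171 and 407 ± 134 CPM. HLA-C and HLA-B stood at 35.8 ± 6.50 and 19.6 ± 3.54 CPM, and 3 genes of the interval had a mean of at least 10 CPM. HLA-DRA had 5.34 ± 1.66 CPM and HLA-DQA1 no count. No ratio of B2M to the class I chains was read from these values. Outside the interval, the co-stimulators CD86 (3.28, 1.99 and 1.08 CPM), CD80 (0.612 ± 0.155 CPM) and CD40 (0.713 ± 0.202 CPM) were low, and CD274 (PD-L1) had 8, 5 and 5 counts.

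Silent genes were grouped by family. Of all protein-coding symbols 20.2% had no count. The HOX genes, which set position in the body and drive many other leukaemias, were mostly without counts. So were the families restricted to other tissues described below. HOXA had no count in 8 of 11 genes, HOXB in 9 of 10, HOXC in 6 of 9 and HOXD in all 9. The highest HOX gene of all, HOXA11, had a mean of 0.0528 CPM, under the floor of every sample. HOXA9 and HOXA10 (chromosome 7, 27202057 to 27219880, minus strand, GRCh37) had no count.

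Families restricted to other tissues were near empty. No count was found for 337 of 372 olfactory receptor genes. Of these, 12 lie in the HLA interval, where a 0 was not read as silence, and 325 of the other 360 had no count. The same held for 89 of 93 keratin-associated protein genes, all 37 beta-defensin genes and 46 of 55 keratin genes, none of which lie there. Each had few exceptions. OR2W3 stood at 1.24 ± 0.235 CPM, and the keratins KRT10 and KRT17 at 18.3 ± 2.14 and 14.8 ± 2.72 CPM. Of 49 MAGE and GAGE genes, only some of which are cancer-testis antigens, 41 had no count. The 4 at or above 1 CPM in every sample were led by MAGED2 (62.4 ± 3.18 CPM) and MAGEF1 (26.5 ± 5.23 CPM), which are also used in normal tissues. Protocadherins were in part expressed, with 24 of 65 at or above 1 CPM in every sample. The highest were PCDHGB2 (26.8 ± 2.65 CPM), PCDHGC3 (24.4 ± 0.853 CPM) and PCDHGA6 (23.6 ± 1.68 CPM), which belong to the gamma cluster, where transcripts share their last exons.

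Histone and noncoding RNA symbols were mostly low. Histone genes, most of whose messages lack a poly(A) tail, had a median of 0.133 CPM over 70 members, and the highest was HIST1H2BK with 20.9 ± 3.63 CPM. Of the microRNA symbols MIR4426 had 570.3, 529 and 485 CPM, and MIR1244-1, MIR1244-2 and MIR1244-3 had identical counts. Poly(A)-selected libraries do not measure mature microRNA. Of 370 small nucleolar RNA symbols 74 were at or above 1 CPM in every sample. Of 742 LINC symbols 72 were, led by LINC00657 (NORAD), a noncoding RNA that binds Pumilio proteins, with 342, 356 and 362 CPM. Zinc finger genes of the ZNF series were widely used. At or above 1 CPM in every sample were 410 of 507 (80.9%), against 58.8% of all protein-coding symbols. Their median was 12.3 CPM, against 7.19 CPM for all protein-coding symbols. ZNF146 was the highest with 241 ± 7.32 CPM.

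The last question was how far a single value can be trusted. Over the 12658 symbols with a mean of at least 1 CPM, the median coefficient of variation (CV) was 10.9%, while counting error alone would give a median of 3.15%. The median CV was 17.9% between 1 and 10 CPM, 10.01% between 10 and 100, 8.40% between 100 and 1000 and 11.4% from 1000 CPM. Counting error in the last class was 0.457%. The spread between samples thus exceeded the counting error in every class. A common biological coefficient of variation of 0.147 was estimated by edgeR over 13535 symbols that passed its filter.

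**Figure D5:**
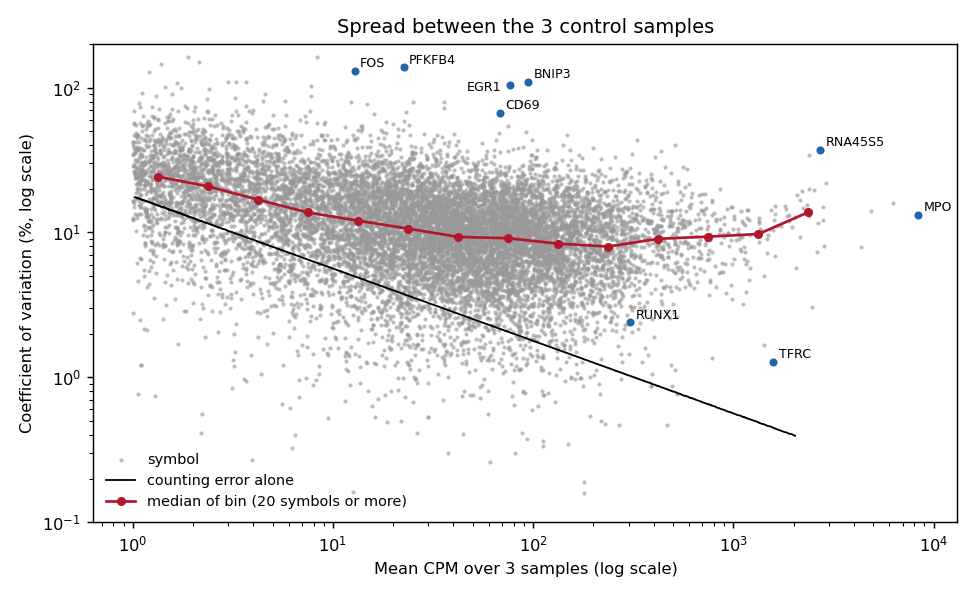
Coefficient of variation over the 3 control samples (%, log scale) against mean CPM (log scale) for the symbols with a mean of at least 1 CPM. Grey points are symbols, red points the median of bins with at least 20 symbols, and the black line the counting error alone. The medians flatten near 10%, and FOS, PFKFB4, EGR1 and BNIP3 lie above 100%.

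Most genes were close in all 3 samples. The median ratio of the highest to the lowest sample was 1.20 over the 9479 symbols with a mean of at least 10 CPM, and 1783 of them (18.8%) had a ratio under 1.1. The ratio was above 2 for 108 symbols (1.14%). Sample 1 was the highest in 76 of these and sample 25 the lowest in 73. Without sample 1 the count was 18 and without sample 25 it was 32, and without sample 13 it was 99. Leaving out a sample can only lower this ratio apart from the scaling, so part of the drop is by construction. Most of the ratios above 2 were thus also seen between samples 1 and 25. Several of the 10 widest, given below, had their highest or lowest value in sample 13. The log2 ratio of sample 1 to sample 13 had a rank correlation across genes of 0.205 with transcript length, that of sample 1 to sample 25 of 0.165, and that of sample 13 to sample 25 of 0.0174, given as a description.

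The 10 widest ratios fell into several patterns. FOS and EGR1, transcription factors that growth signals switch on within minutes, and CD69, an early activation antigen, were highest in sample 25. FOS had 4.70, 1.78 and 32.1 CPM, EGR1 52.7, 11.8 and 165 CPM, and CD69 63.9, 25.3 and 116 CPM, so all 3 were lowest in sample 13. PFKFB4, a regulator of glycolysis, and BNIP3, a mitochondrial protein that acts in mitophagy, were highest in sample 1. PFKFB4 had 58.4, 5.18 and 4.07 CPM and BNIP3 214, 36.4 and 33.4 CPM. DDIT4, an inhibitor of mTOR signalling, TRH, a hormone precursor, and NEDD9, an adhesion scaffold, were also highest in sample 1, with 40.0, 67.9 and 27.8 CPM. SKIL, an inhibitor of TGF-beta signalling, and MT1X, a metallothionein, were highest in sample 13 with 63.7 and 23.4 CPM. MT1X has close relatives in its gene family with which reads may be shared.

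At the other end, the 10 narrowest ratios lay under that of every other symbol from 10 CPM. RSL1D1, a nucleolar protein, stood at 179 ± 0.282 CPM, AP2B1, a clathrin adaptor chain, at 178 ± 0.337 CPM and ELMO1, which activates Rac, at 149.9 ± 0.518 CPM. The others were TMEM254, TRAPPC8, GTF3C3, UBASH3B, EBP, DGAT1 and TFG, between 12.6 and 113 CPM. Such values were closer than counting error alone gives on average, and they were selected as the extremes of 9479 symbols.

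The genes usually taken as references were not the most even. Of 16 housekeeping genes, all had a mean of at least 10 CPM. TFRC had a CV of 1.28%, GUSB of 1.57%, SDHA of 2.76% and POLR2A of 4.33%. ACTB with 13.98%, B2M with 12.7% and RPL13A with 20.1% were above the median of 10.9%, and GAPDH was below it with 7.96%. Among the lineage genes SPI1, with 0.892%, was more even than all 16 of them. RUNX1, with 2.40%, was more even than all but TFRC and GUSB, and GATA2, with 3.34%, than all but these and SDHA. Between 100 and 1000 CPM, the class of SPI1, counting error alone gives a median CV of 1.38%. The CV of SPI1 lay under that and was singled out of 143 lineage symbols. With 3 samples, its order against the reference genes is uncertain.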

How the data were processed

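RNA of SKNO-1 cells was analysed in the 3 samples labelled EV; the 6 ASXL2 shRNA samples were used only for an alternative choice of transcript. The authors deposited whole-number counts per RefSeq transcript, not normalized. The submitters' processing notes name hg19, STAR, featureCounts and DESeq2, without versions here, while the study's methods name Cuffdiff for its tests; how reads with several matches were treated is not given in the sources used here. Depth, which sets the precision of each value, lay between 29197732 and 35406241 counts with 1 row per symbol, out of 65462329 to 79254366 when every row is added.

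For each symbol the row with the highest total over the 3 samples was kept. Library sizes were scaled by TMM (edgeR 4.0.16, R 4.3.3) to CPM. Transcript lengths were not given by the files or the reference annotation for RefSeq, so CPM per kilobase used the median length of the gene's basic coding transcripts in GENCODE v44lift37 (GRCh37), found for 24202 of 25680 symbols, and at least 300 nt for the ranking. Gene classes came from the RefSeq gene table of GRCh38.p14, in which 24972 symbols matched by accession, 564 by symbol and 144 not at all. Summaries were tested on simulated data. No test between groups was made, and values are means ± SD (n = 3), which measure the spread between samples of a single line, given by the study as a biological triplicate.

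The members and lists were chosen with earlier results of these data known. The named genes were, by rule, the 20 with the highest CPM, the 20 with the highest CPM per kilobase, 2 to 6 of the highest members of each marker list with every defining marker at 0, the 10 widest and the 10 narrowest ratios from 10 CPM, the highest member of each gene family, and the highest CD-numbered symbol. Further members of lists and families, further CD-numbered symbols, the genes whose upstream sequence is shown, those of the HLA interval and pseudoautosomal region 1 with their neighbours and relatives, and RPL13AP5, SMN1, SMN2, CFD, HOXA9 and HOXA10 were added after their values were seen. Sex-linked marker genes were not named, and some genes are not reported here. Alternatives were another scaling (library total; DESeq2 1.42.0 size factors), other minimums, other row choices, other lengths and leaving out each sample.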

Additional observations from a re-analysis of the deposited data

How the results depend on the processing

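The counts of symbols in use, of symbols with at least 3 counts and of symbols with no count stayed within 1.5 times their value. This held under every alternative run, including other scalings, other row choices and leaving out the HLA interval and pseudoautosomal genes. Some runs could hardly move these counts. TMM factors lay between 0.994 and 1.01, and the left-out regions held few of the 25680 symbols. Using library totals instead, or leaving the regions out, therefore says little about stability. Values that moved were these. With all rows summed per symbol, the 10 most abundant symbols took 5.02% and the ribosomal protein genes 6.94% of the counts. With a mean of at least 1 CPM in place of 10, 510 symbols had a ratio above 2; leaving out a sample gave 18 to 99. Without length scaling 9 of the 20 highest symbols per kilobase remained. For the summed level of the 11 lineage lists, 53 of 77 values moved by less than the SD and 24 moved further: all 11 on the TPM scale, which multiplies each by about 1.81, 9 without length scaling and 4 with canonical transcript lengths, a choice made after seeing the data, as were the lowest row, the left-out regions and leaving out RNA45S5. The granulocyte precursor list stood first and the stem and progenitor list second under each. The row with the longest transcript was not run, since transcript lengths were not available for RefSeq rows. No paired analysis was possible because no groups were compared. Depth limits any value under 0.0840 to 0.103 CPM.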
